A study of Mus musculus with 12 samples.

Results

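The proteasome genes described here were the protein-coding rows of the count table with a symbol of the form Psma, Psmb, Psmc, Psmd, Psme, Psmf or Psmg followed by a number, without Psmb8 and Psmb9. This rule used symbols only and no measured value, and it gave 46 genes of 45906 in the table. RNA came from the spinal cord of 7-month-old mice in 4 groups of 3 mice. Control mice were Plekhg5+/+ without a transgene. Plekhg5-/- mice lacked Plekhg5, a factor linked to autophagy of synaptic vesicles, without a transgene. Plekhg5+/+ SOD1-G93A mice carried the "low copy" human SOD1-G93A transgene, a slowly progressing mouse model of amyotrophic lateral sclerosis. Plekhg5-/- SOD1-G93A mice carried that transgene and lacked Plekhg5. The lines had a C57BL/6 background, and the paper states that sex was not considered and was equally distributed. Y-linked transcripts were present in 3, 2, 2 and 1 of the 3 libraries in that order of groups. By these transcripts sex was unequal between the groups, so it is partly confounded with genotype.

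The proteasome degrades proteins tagged with ubiquitin. Its 20S core is a barrel with outer rings of alpha subunits (Psma genes), which form the gate, and inner rings of beta subunits (Psmb genes), which hold the proteolytic sites. The 19S cap, built from ATPases (Psmc genes) and non-ATPase subunits (Psmd genes), binds, deubiquitinates and unfolds the substrate. Psmg1 to Psmg4 are chaperones of 20S assembly, and Psmd5, Psmd9 and Psmd10 are chaperones of 19S base assembly that do not remain in the finished cap. Psme1 and Psme2 encode the interferon-inducible activator PA28, Psme3 and Psme4 encode the nuclear activators PA28 gamma and PA200, and Psmf1 encodes the inhibitor PI31. Interferon also induces Psmb10, which replaces the catalytic subunit Psmb7 in immunoproteasomes, as Psmb8 and Psmb9 replace Psmb5 and Psmb6. Under proteasome inhibition, the transcription factor Nfe2l1 raises most subunit genes through antioxidant response elements.

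Promoter sequences are shown for the members with an antioxidant response element core and for the PA28 pair, whose difference between SOD1-G93A and control mice is described below. The promoter table (RefSeq, GRCm38.p6) matched 38 of the 46 members, and only the 250 bases before each start were searched, on both strands. The core of the element, TGACNNNGC, lay in 5 of the 38 member promoters (13.2%) and in 10.5% of the 17481 other promoters. These are the windows around the 5 matches, read along the strand of the gene, with the match in capitals.
Psmb5, chr14:54618018-54618058, minus strand: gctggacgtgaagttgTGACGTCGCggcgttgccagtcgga
Psmb6, chr11:70525332-70525356, plus strand: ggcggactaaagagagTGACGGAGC
Psmc6, chr14:45329581-45329621, plus strand: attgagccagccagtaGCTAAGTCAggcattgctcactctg
Psmd9, chr5:123228143-123228183, plus strand: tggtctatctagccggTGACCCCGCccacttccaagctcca
Psmd12, chr11:107479278-107479305, plus strand: tctGCTGTGTCAcatttgcccccctcag
In Psmc6 and Psmd12 the match was on the strand opposite to the gene, so that the capitals read as its reverse complement. The matches began 47, 9, 227, 31 and 247 bases before the start given in the promoter table, in the order printed. That start differed from the gene start in the count table for Psmb6 and Psmc6, and the Psmb6 window lies inside the gene as the count table annotates it, from position 70525324. The CCAAT box of NF-Y lay in 13 member promoters (34.2%) and in 36.5% of the others, and the cAMP response element TGACGTCA in 0 member promoters and in 1.99% of the others. The interferon-stimulated response element GAAANNGAA lay in 3 member promoters (7.89%; 6.92% of the others) and the gamma-activated site TTCNNNGAA in 1, Psmg1 (2.63%; 6.62% of the others). A match is a description of the letters, not a site shown to be bound.

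None of these 5 motifs was found in the printed PA28 promoters, which lie near each other on chromosome 14, each with no capitals because it held no match.
Psme1, chr14:55578244-55578493, plus strand: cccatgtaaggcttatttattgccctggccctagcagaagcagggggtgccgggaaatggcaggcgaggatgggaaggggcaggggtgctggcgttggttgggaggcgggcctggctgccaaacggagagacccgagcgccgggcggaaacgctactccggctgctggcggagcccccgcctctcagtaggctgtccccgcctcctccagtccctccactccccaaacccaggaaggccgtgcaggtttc
Psme2, chr14:55591102-55591351, minus strand: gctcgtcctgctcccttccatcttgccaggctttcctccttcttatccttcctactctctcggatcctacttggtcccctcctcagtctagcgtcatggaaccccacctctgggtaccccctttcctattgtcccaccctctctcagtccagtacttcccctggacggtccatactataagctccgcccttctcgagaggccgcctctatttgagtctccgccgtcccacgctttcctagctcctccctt

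The 12 libraries held 30415643 to 38743628 counts assigned to genes, of which 0.333% to 0.390% fell on the 46 members. Plekhg5 was at 20.9 to 25.0 CPM (counts scaled to a common library size with TMM factors) in SOD1-G93A and 19.4 to 25.0 CPM in control mice, against 3.28 to 4.70 CPM in Plekhg5-/- and 3.92 to 4.72 CPM in Plekhg5-/- SOD1-G93A mice. Human SOD1 was at 4421 to 5638 CPM in the 6 transgenic libraries and at most 5.47 CPM in the others. The summed marker genes of oligodendrocytes reached 22500 to 32000 CPM and those of neurons 6180 to 7630 CPM. Because RNA was taken from whole spinal cord, a change in the number of cells of a type and a change in RNA per cell cannot be told apart.

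Of the 46 members, 45 passed the filter on low counts. Psmb11, the thymus-specific beta subunit, had 1 to 5 counts per library and did not pass. Psma8, the testis-specific alpha subunit, passed with 3 to 17 counts (0.0944 to 0.516 CPM). Each of the other 44 members had at least 120 counts in every library.

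To compare levels between genes, CPM were divided by the kilobases of annotated exon. In control mice, the 7 standard beta subunits lay between 50.3 CPM per kb for Psmb5, the chymotrypsin-like catalytic subunit (± 6.40, SD, n = 3), and 121.7 CPM per kb for Psmb4, a non-catalytic subunit (± 14.9). The 7 standard alpha subunits lay between 26.7 CPM per kb for Psma3 (± 2.62) and 90.3 CPM per kb for Psma2 (± 10.9). The 14 genes of a complex with equal subunit numbers thus spanned a 4.56-fold range per length, with a median of 61.0 CPM per kb. The annotated exon length of Psma3 was 2.915 kb, against at most 1.591 kb for the other 6 standard alpha subunits.

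The 17 Psmc and Psmd subunits of the 19S cap spanned 9.99-fold per length. The highest was the ATPase Psmc5 at 197.5 CPM per kb (± 26.7), followed by the ATPases Psmc1 at 112 (± 7.82) and Psmc3 at 86.1 (± 9.91), and the lowest was the lid subunit Psmd11 at 19.8 (± 1.43). The ubiquitin receptor Psmd4 was at 78.6 CPM per kb (± 8.02) and the deubiquitinase Psmd14 at 53.6 (± 4.003), while the ATPases Psmc2 at 62.6 (± 5.59) and Psmc4 at 61.3 (± 5.10) differed by less than their spread. Of the 7 assembly factors, all but Psmd5 lay below every standard subunit per length. Psmg1, Psmg2, Psmg3 and Psmg4 were at 9.30, 9.22, 12.3 and 7.52 CPM per kb, and Psmd5, Psmd9 and Psmd10 at 27.0, 9.48 and 11.3 CPM per kb. Among the regulators Psme3 was at 31.7 (± 0.579), Psme1 at 20.7 (± 2.24), Psme2 at 20.3 (± 3.50), Psmf1 at 9.85 (± 0.420) and Psme4 at 7.45 CPM per kb (± 0.452). Psmb10, at 19.1 CPM per kb (± 1.65), had a level 17.7 per 100 of its constitutive counterpart Psmb7 (± 0.288).

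**Figure D1:**
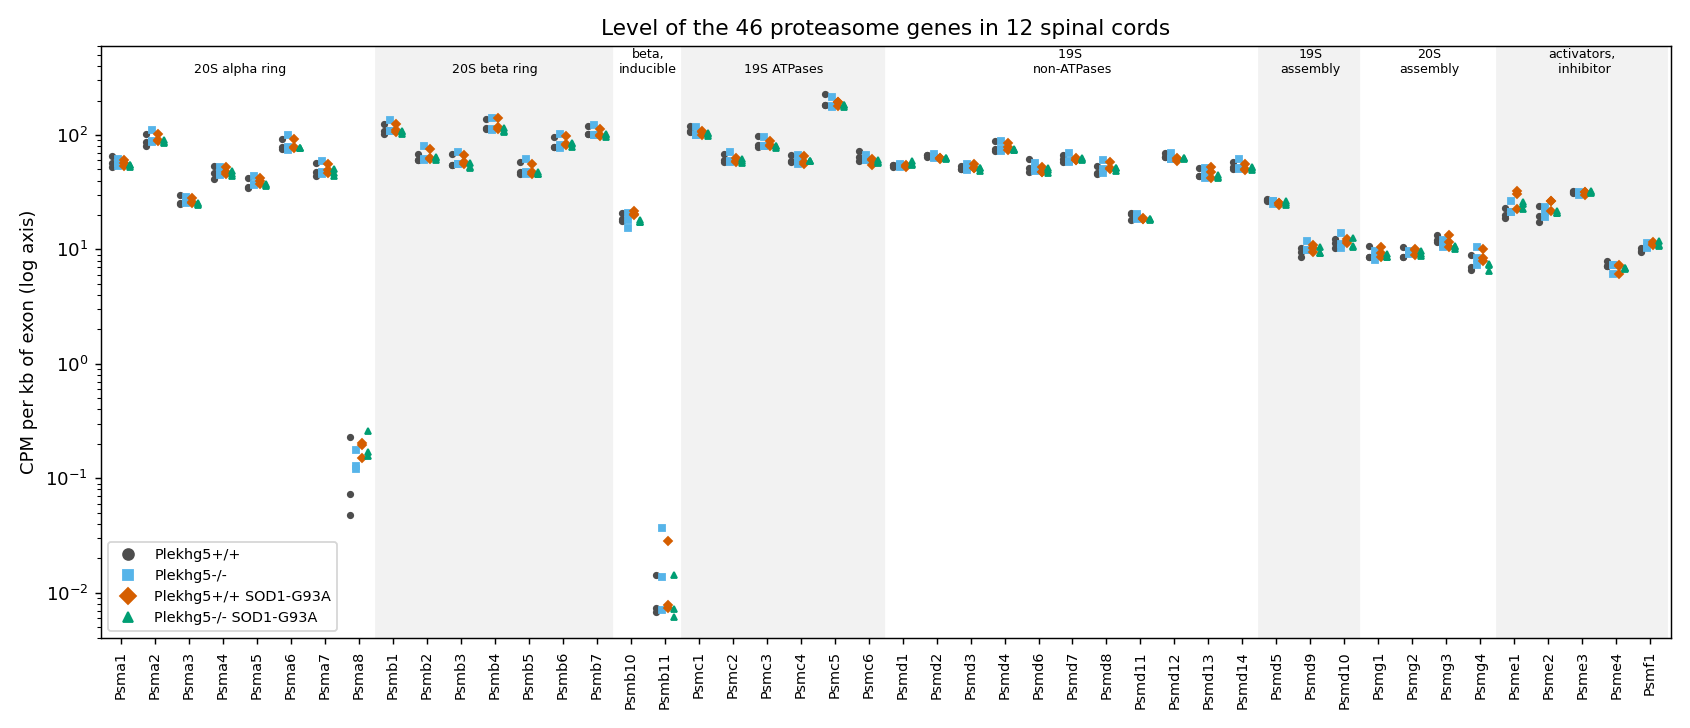
CPM per kb of annotated exon (log axis) of the 46 members in each of the 12 libraries, grouped by role and coloured by genotype. Standard subunits of the 20S core and 19S cap lie between about the level of Psmd11 and that of Psmc5, the assembly chaperones below most of them, and Psma8 and Psmb11 far below all others.

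Before any comparison of genotypes, 3 libraries stood apart for nearly all standard subunits, and each belonged to a different group. The median deviation of the 45 members from their 12-library mean was 0.17 (log2 CPM) in control library 1, 0.17 in Plekhg5-/- library 1 and 0.11 in SOD1-G93A library 3, and between -0.09 and -0.02 in the other 9 libraries. Psmb4, for example, was at 132, 106 and 109 CPM in control, 134.9, 108.1 and 105.9 CPM in Plekhg5-/-, 111, 107 and 133 CPM in SOD1-G93A, and 102.7, 101.2 and 108.3 CPM in Plekhg5-/- SOD1-G93A mice, in the order of their library numbers. Psmb5 followed the same libraries, at 50.2, 39.8 and 41.5 CPM in control, 54.1, 41.6 and 40.1 CPM in Plekhg5-/-, 41.4, 39.6 and 48.5 CPM in SOD1-G93A, and 39.9, 40.1 and 41.1 CPM in Plekhg5-/- SOD1-G93A mice. In the 3 libraries, these short genes were higher than in the other libraries of the same genotype.

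The size of this deviation moved with exon length, inside and outside the proteasome. In Plekhg5-/- library 1 the median deviation was 0.27 for the 9 members with up to 1 kb of exon, 0.19 for the 26 members of 1 to 2 kb and 0.09 for the 9 members of 2 to 4 kb, and Psme4, the 1 member over 4 kb, was at -0.20. In the same library it was 0.25 for the 395 other protein-coding genes with up to 1 kb of exon, 0.16 for 1419 genes of 1 to 2 kb, 0.05 for 3546 genes of 2 to 4 kb and -0.08 for 5769 genes over 4 kb. Psmd1, a large scaffold subunit of the cap with 3.256 kb of exon, did not share the pattern, with 172, 179 and 177 CPM in control and 182, 172 and 180 CPM in Plekhg5-/- mice. Across the 12 libraries, the 31 standard subunits had a median pairwise correlation of 0.82 (log2 CPM, 465 pairs, 436 positive). After a smooth trend on exon length had been removed from each library, the median was 0.47 (428 pairs positive), and the within-genotype SD of the members' median fell from 0.103 to 0.0216. These correlations describe libraries that share depth and preparation and carry no test. The removal of the trend was chosen after seeing the data.

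**Figure D2:**
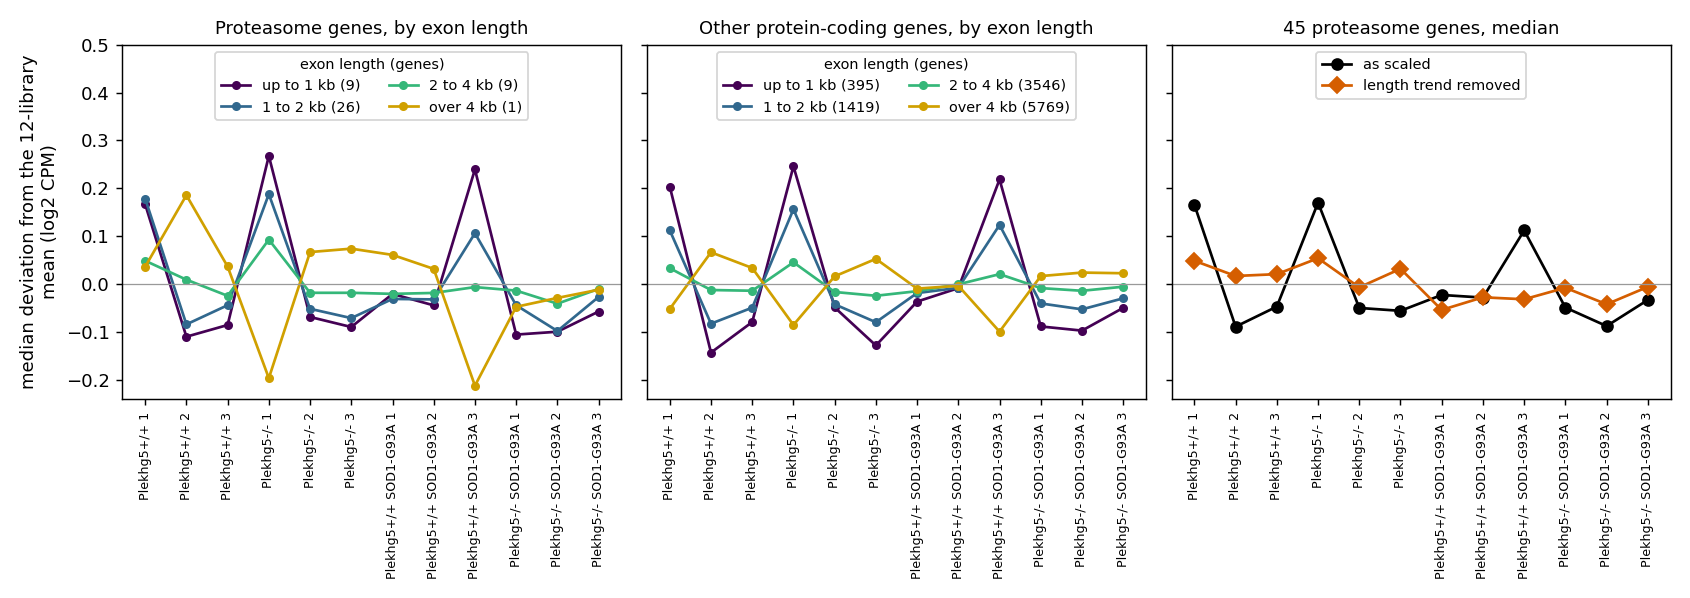
Median deviation from the 12-library mean (log2 CPM, y axis) in each library (x axis), for members and for other protein-coding genes by exon length class, and for all 45 members before and after removal of the exon-length trend. Control library 1, Plekhg5-/- library 1 and SOD1-G93A library 3 are high for short genes in both panels, and after removal the 3 libraries of SOD1-G93A mice lie between -0.05 and -0.03 and the 3 of control mice between 0.02 and 0.05.

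To ask whether the SOD1-G93A transgene changed proteasome expression, Plekhg5+/+ SOD1-G93A mice were compared with control mice. No member passed the test in edgeR's quasi-likelihood fit over all 20155 genes tested (0 of 45 at an adjusted p under 0.05, where adjustment is by Benjamini-Hochberg over all genes; 2.47% of all genes tested passed). The median log2 fold change of the 45 members was 0.01 (all genes tested: -0.001), 24 members were positive, and for 41 of the 45 the 95% confidence interval lay within 0.5 log2 units of 0. On leaving out 1 library at a time, this median ranged from -0.05 without SOD1-G93A library 3 to 0.09 without control library 1, and it was also negative without control library 2 (-0.04) or 3 (-0.04), so its sign was not fixed. At an unadjusted p under 0.05 stood 3 members (6.67%, against 18.2% of all genes tested), all of them higher: Psme1, Psme2 and Psmf1. DESeq2, the alternative tool, called 1 member, Psme1, among 1149 genes called in the whole table, against 498 in edgeR. It had 4 members at an unadjusted p under 0.05, among 3643 genes in the whole table. The groups did not overlap for 4 members (8.89%, against 20.6% of all genes tested), namely Psmf1 (higher) and Psmd2, Psmd5 and Psmd12 (lower).

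The activator PA28 had the largest differences of any member above the level of Psma8. Psme1 was at 22.6, 18.3 and 19.7 CPM in control mice, 31.8, 22.2 and 29.6 CPM in SOD1-G93A mice, 25.78, 20.55 and 20.95 CPM in Plekhg5-/- mice and 24.2, 25.1 and 21.9 CPM in Plekhg5-/- SOD1-G93A mice. SOD1-G93A libraries 1 and 3 were the highest of all 12, whereas library 2 lay within the range of the control mice. The fold of SOD1-G93A over control was 1.38 (log2 fold change 0.47 ± 0.133, SE; adjusted p = 0.0874 in edgeR's quasi-likelihood test; adjusted p = 0.0295 in DESeq2), and without SOD1-G93A library 2 the log2 fold change was 0.59 (edgeR adjusted p = 0.0159). Without SOD1-G93A library 1 it was 0.36 (edgeR adjusted p = 0.314).

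Psme2, its partner in the same ring, was at 23.6, 16.8 and 19.1 CPM in control mice, 25.8, 21.1 and 25.9 CPM in SOD1-G93A mice, 23.1, 20.9 and 18.6 CPM in Plekhg5-/- mice and 20.2, 21.0 and 20.5 CPM in Plekhg5-/- SOD1-G93A mice. The ranges of control and SOD1-G93A mice overlapped, and the log2 fold change was 0.29 ± 0.122 (SE; edgeR adjusted p = 0.229). Summed per length, Psme1 and Psme2 made 4.22, 3.95 and 4.22 per 100 of the summed 20S subunits in control mice and 6.18, 4.66 and 5.13 in SOD1-G93A mice, so that these ranges did not overlap. In Plekhg5-/- SOD1-G93A mice the ratio was 4.89, 5.19 and 4.55, against 4.25, 4.48 and 4.37 in Plekhg5-/- mice, where again the 2 ranges did not overlap; no exact permutation test of 3 against 3 can go below p = 0.1. The nuclear activator Psme3 stayed between 94.6 and 102 CPM in all 12 libraries (log2 fold change -0.02 ± 0.0505, SE, in SOD1-G93A over control mice), and Psme4 was at 68.7, 76.2 and 68.8 CPM in control and 69.9, 68.5 and 57.9 CPM in SOD1-G93A mice (-0.12 ± 0.0869, SE; edgeR adjusted p = 0.498).

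The inhibitor Psmf1 was at 35.7, 36.5 and 38.8 CPM in control mice and 42.2, 43.3 and 41.0 CPM in SOD1-G93A mice. All 3 SOD1-G93A libraries lay above all 3 control libraries (log2 fold change 0.19 ± 0.0629, SE; edgeR adjusted p = 0.133). It was at 42.8, 39.8 and 38.8 CPM in Plekhg5-/- mice and 44.2, 40.8 and 40.0 CPM in Plekhg5-/- SOD1-G93A mice, so control mice were the lowest group.

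The inducible subunit Psmb10 was at 26.6, 22.7 and 23.3 CPM in control mice, 26.5, 22.8 and 19.6 CPM in Plekhg5-/- mice, 27.7, 26.1 and 25.6 CPM in SOD1-G93A mice and 22.9, 21.9 and 22.2 CPM in Plekhg5-/- SOD1-G93A mice. Control and SOD1-G93A mice overlapped (log2 fold change 0.13 ± 0.0987, SE; edgeR adjusted p = 0.535). Relative to its counterpart Psmb7, Psmb10 was at 17.48, 17.56 and 18.02 per 100 in control mice and at 22.4, 20.7 and 17.8 per 100 in SOD1-G93A mice. The other inducible subunits, which the rule leaves out, passed the test in this comparison, with log2 fold changes of 0.98 ± 0.194 (SE; edgeR adjusted p = 0.0235) for Psmb8 and 1.52 ± 0.255 (SE; edgeR adjusted p = 0.0146) for Psmb9. Without control library 1 the adjusted p was 0.0838 for Psmb8 and 0.0697 for Psmb9, and without control library 2 it was 0.11 and 0.0981, so neither then passed. In a fit of these 2 groups alone it was 0.102 and 0.0808, and without the 3 libraries high for short genes it was 0.0686 for Psmb8. DESeq2 called both (adjusted p = 0.000291 and 4.75e-05). With the exon-length trend removed, both passed in edgeR (adjusted p = 0.0383 and 0.0226). With the trend removed and control library 1 left out, neither did (edgeR adjusted p = 0.118 and 0.0832). Both stayed far below their counterparts, since Psmb8 reached at most 24.6 per 100 of Psmb5 and Psmb9 at most 4.65 per 100 of Psmb6.

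The summed markers of microglia and of the interferon response were higher in SOD1-G93A than in control mice. The summed level of 12 microglia markers was 571 to 675 CPM in control, 643 to 876 CPM in Plekhg5-/-, 1110 to 2090 CPM in SOD1-G93A and 828 to 919 CPM in Plekhg5-/- SOD1-G93A mice, and 11 of the 12 passed the test as higher in SOD1-G93A than in control mice. Motoneuron markers summed to 558 to 572 CPM in control and 446 to 537 CPM in SOD1-G93A mice, with 1 of 10 lower (Chodl), and of the 10 endothelial markers 1 was lower (Ly6c1) and of the 10 oligodendrocyte markers 1 was higher (Opalin). Lymphocyte markers summed to at most 7.32 CPM in any library, and 0 of the 5 that could be tested passed. For 12 interferon response genes the sums were 190 to 204, 205 to 229, 270 to 595 and 253 to 288 CPM in the same order, and 2 of the 12 passed. SOD1-G93A library 1 had the highest sum of both lists and the highest Psme1, Psmb8, Psmb9 and Psmb10. Psme2 was highest in SOD1-G93A library 3 (25.85 CPM, against 25.78 CPM in library 1). In SOD1-G93A libraries 2 and 3 the interferon sums were 294 and 270 CPM and the microglia sums 1111 and 1176 CPM. Psme1 was at 22.2 and 29.6 CPM in these 2 libraries. No marker of either list was at 0 in every library. Astrocyte markers summed to 7690 to 7980 CPM in control and 9430 to 12600 CPM in SOD1-G93A mice, with 3 of 10 higher. Of the neuron markers 0 of 10 passed, at 7460 to 7630 and 6180 to 7220 CPM. Their part in the differences of Psme1, Psme2 and Psmb10 was not tested.

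**Figure D3:**
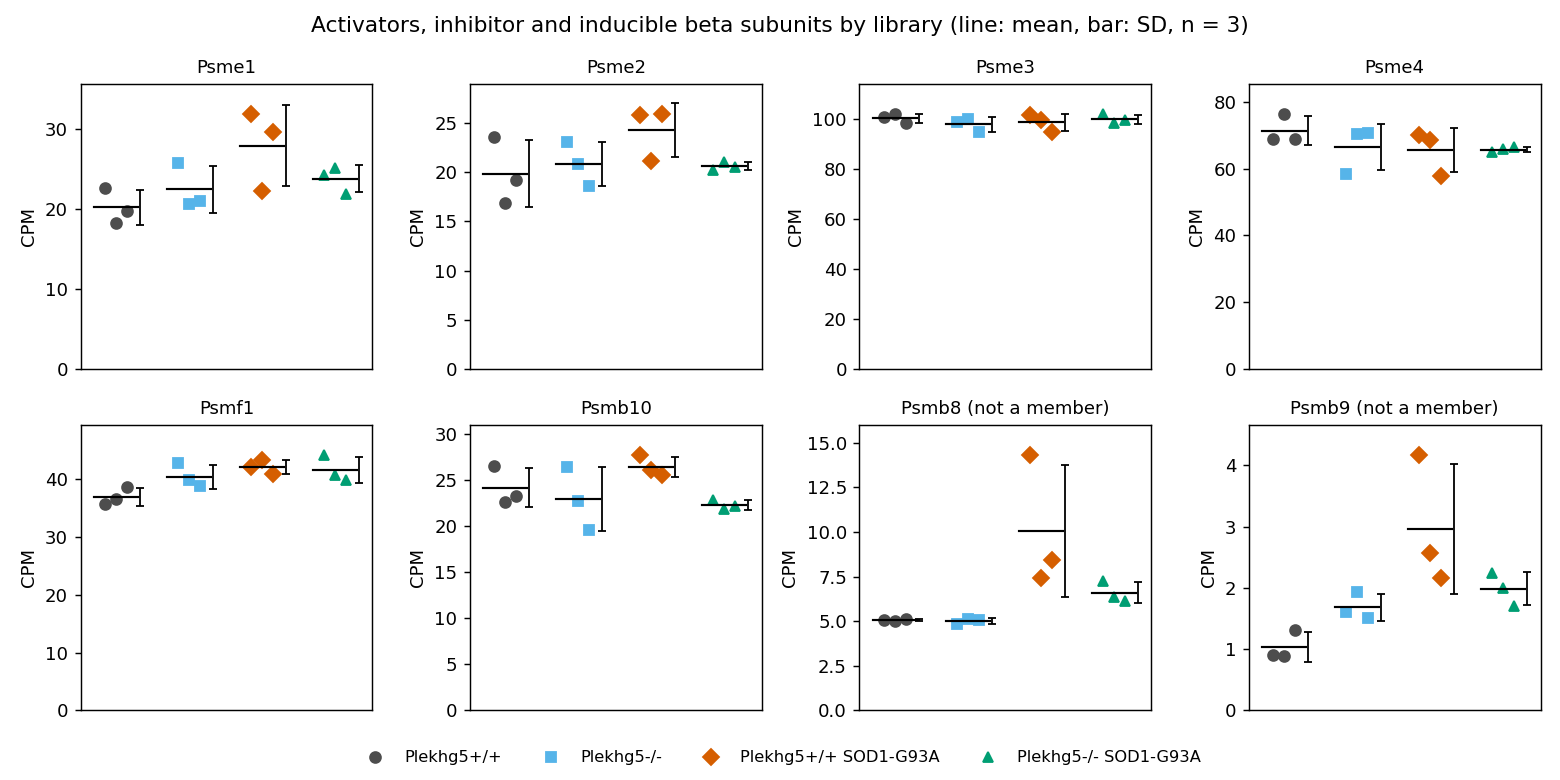
CPM (y axis, from 0) of the activators Psme1 to Psme4, the inhibitor Psmf1 and the inducible beta subunits in the 12 libraries by genotype, with the mean and SD of each group of 3. Psme1 is highest in SOD1-G93A libraries 1 and 3, Psme3 lies between 94.6 and 102 CPM throughout, and Psmb8 and Psmb9, which are not members, are highest in SOD1-G93A library 1.

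In the 20S rings, no standard subunit passed the test in this comparison, nor stood at an unadjusted p under 0.05. The 7 standard beta subunits had log2 fold changes between -0.06 (Psmb7) and 0.09 (Psmb2), and the 7 standard alpha subunits between -0.04 (Psma1) and 0.09 (Psma5). Their sum per length was 1117, 909 and 943 CPM per kb in control mice and 953, 952 and 1106 in SOD1-G93A mice, where the high values again belonged to the libraries with high short genes. In the 19S cap all 6 ATPases had a negative log2 fold change, from -0.15 for Psmc6 (± 0.0777, SE; edgeR adjusted p = 0.353) to -0.04 for Psmc4, and none passed the test. Psmc6 was at 126, 102 and 111 CPM in control and 95.9, 104.2 and 107 CPM in SOD1-G93A mice.

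Among the non-ATPase subunits, the lid subunit Psmd6 was at 82.2, 63.9 and 69.2 CPM in control and 63.9, 63.4 and 69.6 CPM in SOD1-G93A mice (log2 fold change -0.13 ± 0.0905, SE; edgeR adjusted p = 0.494). The scaffold subunit Psmd2 was at 227, 228 and 221 CPM in control and 212.5, 214 and 216 CPM in SOD1-G93A mice (-0.07 ± 0.05, SE; edgeR adjusted p = 0.492), and the lid subunit Psmd12 at 119.9, 110.2 and 109.7 CPM in control and 103.1 and 105.9 CPM in SOD1-G93A libraries 1 and 3, with library 2 between the latter and the lowest control library (-0.10 ± 0.0593, SE; edgeR adjusted p = 0.412). The groups did not overlap for either gene, and neither passed the test. Of the assembly factors, Psmd5 was at 54.1, 56.2 and 55.7 CPM in control and 49.6, 51.7 and 52.6 CPM in SOD1-G93A mice (-0.11 ± 0.0532, SE; edgeR adjusted p = 0.309), and Psmg4, the lowest expressed chaperone, had a log2 fold change of 0.23 ± 0.164 (SE; edgeR adjusted p = 0.508).

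**Figure D4:**
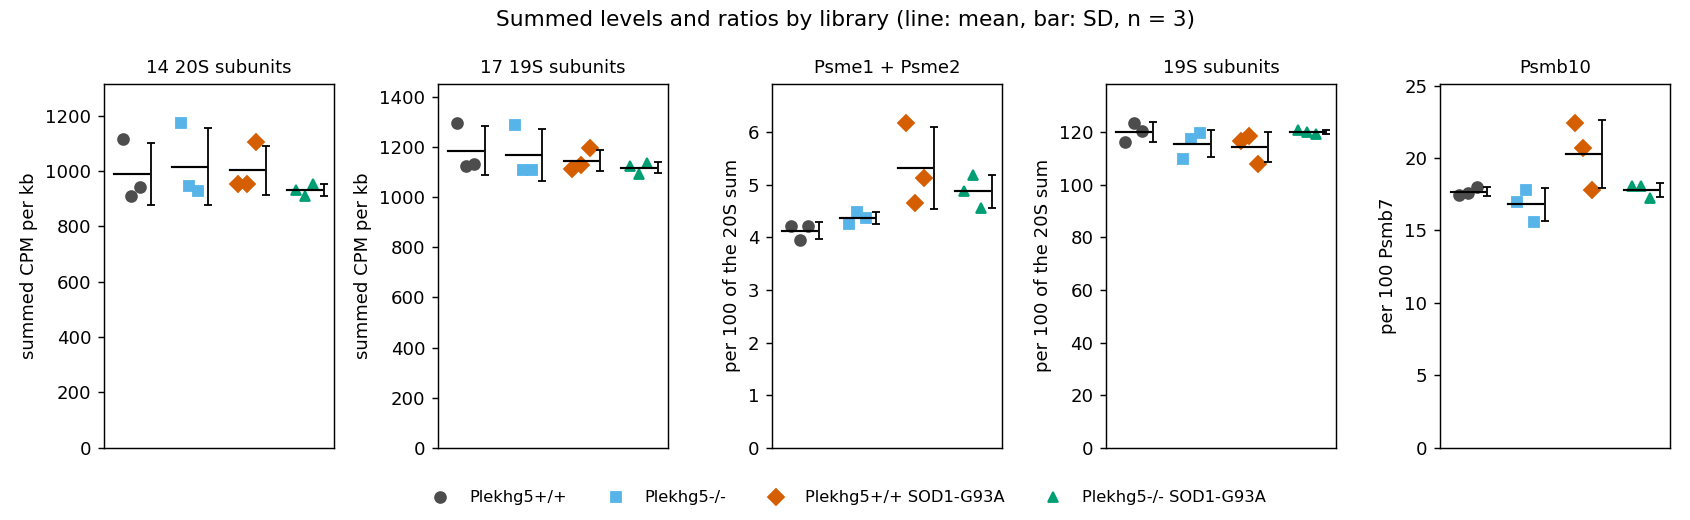
Summed CPM per kb of the 14 standard 20S and 17 standard 19S subunits, and the ratios of PA28 and of the 19S sum to the 20S sum and of Psmb10 to Psmb7, for each library by genotype with mean and SD (n = 3, y axes from 0). The 20S and 19S sums overlap between all groups, while the PA28 ratio lies higher in SOD1-G93A mice (4.66 to 6.18) than in control mice (3.95 to 4.22).

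Once the exon-length trend had been removed from each library, the standard subunits were more often lower than higher in SOD1-G93A mice. The median log2 fold change of the 45 members in SOD1-G93A over control mice was then -0.07 (all genes tested: -0.014), and 36 of the 45 were negative. At an unadjusted p under 0.05 stood 18 members (40.0%, against 21.8% of all genes tested), 15 lower and 3 higher, and 4 passed the test as lower (8.89%, against 4.52% of all genes tested). These were Psmb7, the trypsin-like catalytic subunit (-0.16 ± 0.038, SE; edgeR adjusted p = 0.0364), the ATPase Psmc6 (-0.20 ± 0.0497, SE; edgeR adjusted p = 0.0399), Psmd6 (-0.21 ± 0.0518, SE; edgeR adjusted p = 0.0437) and Psmd12 (-0.16 ± 0.0413, SE; edgeR adjusted p = 0.0481).

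By role, 6 of 6 ATPases were lower at an unadjusted p under 0.05 (median log2 fold change -0.14). So were 4 of 11 non-ATPases, 2 of 7 standard beta subunits and 1 of 8 alpha subunits, Psma8 included. Of all genes tested, 21.8% stood at that threshold in either direction. The 3 members that were higher at that threshold were Psme1, Psme2 and Psmf1. The median deviation of the members after the removal was 0.05, 0.02 and 0.02 in control, 0.05, -0.01 and 0.03 in Plekhg5-/-, -0.05, -0.03 and -0.03 in SOD1-G93A, and -0.01, -0.04 and -0.01 in Plekhg5-/- SOD1-G93A mice. SOD1-G93A and control mice did not overlap. Between transgenic and non-transgenic mice that lacked Plekhg5, the same fit had 0 of 6 ATPases at an unadjusted p under 0.05 (median log2 fold change -0.03). Over all members of that comparison, 4 of 45 (8.89%) stood at that threshold, all of them lower. These were 4 of the 7 standard beta subunits (median -0.09), and 0 members passed after adjustment. The share of all genes at the unadjusted threshold was not counted for this fit.

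The calls of this fit were not stable. In 9 of 12 fits that each left out 1 library, 0 members passed, and the 3 others were those without Plekhg5-/- library 1 (3 members), Plekhg5-/- library 3 (1 member) and SOD1-G93A library 2 (6 members, of which 5 lower). The members' median stayed between -0.08 and -0.06 in all 12 of these fits. The share of all genes that passed ranged from 0.00975% without control library 1 to 6.96% without SOD1-G93A library 2, so the number of calls depended on single libraries across the whole table.

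To ask whether the absence of Plekhg5 changed the response to the transgene, Plekhg5-/- SOD1-G93A mice were compared with Plekhg5+/+ SOD1-G93A mice. No member passed the test (0 of 45; 0.0347% of all genes tested), and DESeq2 called 0. The members' median log2 fold change was -0.08 (all genes tested: -0.01), with 7 of 45 positive, and in 42 of 45 the 95% confidence interval lay within 0.5 log2 units of 0. SOD1-G93A library 3 was among the 3 libraries high for short genes, and the median was -0.03 without that library and -0.03 without all 3. With the exon-length trend removed, the median was 0.02 (30 of 45 positive) and 0 members passed.

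Psmb10 was the 1 member at an unadjusted p under 0.05 (2.22%, against 8.64% of all genes tested), with a log2 fold change of -0.24 ± 0.0988 (SE; edgeR adjusted p = 0.531), and its values printed above did not overlap between these groups. With the exon-length trend removed, Psmb10 was at -0.14 ± 0.0687 (SE; edgeR unadjusted p = 0.0603). In that fit 2 members (4.44%), Psmd12 and Psmc4, were higher at an unadjusted p under 0.05. The share of all genes at that threshold was not counted. Groups did not overlap for 5 members (11.1%, against 19.5% of all genes tested), all of them lower in Plekhg5-/- SOD1-G93A mice: Psmb10, Psme2, Psmg4, Psma5 and Psmc3. Psmg4 was at 4.35, 4.65 and 5.64 CPM in SOD1-G93A and 4.04, 4.13 and 3.63 CPM in Plekhg5-/- SOD1-G93A mice (-0.31 ± 0.164, SE; edgeR adjusted p = 0.592). With the exon-length trend removed, Psmg4 was at -0.12 ± 0.11 (SE; edgeR adjusted p = 0.719). Psme2 had a log2 fold change of -0.24 ± 0.121 (SE; edgeR adjusted p = 0.589). The most positive members were Psma8 (0.08 ± 0.43, SE), Psmd1 (0.07 ± 0.0526, SE) and Psmd12 (0.02 ± 0.0593, SE). Psmd1 was at 179, 176 and 171 CPM in SOD1-G93A and 182, 177 and 192.5 CPM in Plekhg5-/- SOD1-G93A mice.

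Without the transgene, Plekhg5-/- and control mice were compared to see what loss of Plekhg5 alone did. No member passed (0 of 45; 0.0298% of all genes tested; DESeq2 called 0), and 0 members stood at an unadjusted p under 0.05, against 5.32% of all genes tested. The median log2 fold change was 0.01, with 25 of 45 positive. It ranged from -0.08 without Plekhg5-/- library 1 to 0.08 without control library 1, and was also negative without control library 2 (-0.04) or 3 (-0.02), so its sign was not fixed. With the exon-length trend removed, the median was -0.0033 (22 of 45 positive) and 0 members passed (0.0447% of all genes tested). In that fit 3 members (6.67%) stood at an unadjusted p under 0.05, Psmf1 higher and Psmg3 and Psmc1 lower. The share of all genes at that threshold was not counted. As scaled, the groups did not overlap for 1 member (2.22%, against 8.71% of all genes tested), Psmf1 (0.13 ± 0.0629, SE; edgeR adjusted p = 0.942). The most negative members were Psmg3 (-0.14 ± 0.104, SE), Psme4 (-0.10 ± 0.0868, SE) and Psmc1 (-0.08 ± 0.0747, SE), and the most positive above the level of Psma8 were Psmg4 (0.22 ± 0.164, SE) and Psme1 (0.15 ± 0.134, SE). Psmg4 was at 4.96, 3.87 and 3.67 CPM in control and 5.85, 4.07 and 4.67 CPM in Plekhg5-/- mice. Psmg3 was at 11.74, 10.04 and 10.47 CPM in control and 10.5, 9.73 and 9.09 CPM in Plekhg5-/- mice. Psmc1 was at 182, 159.7 and 164 CPM in control and 178, 151 and 149 CPM in Plekhg5-/- mice, and Psme4 at 58.5, 70.2 and 70.5 CPM in Plekhg5-/- mice. In each of these the 2 groups overlapped. Psma8, at 0.145, 0.0944 and 0.459 CPM in control, 0.351, 0.241 and 0.252 CPM in Plekhg5-/-, 0.404, 0.297 and 0.390 CPM in SOD1-G93A and 0.308, 0.516 and 0.337 CPM in Plekhg5-/- SOD1-G93A mice, had too few counts to order the groups, and its log2 fold change here (0.27 ± 0.485, SE) and in SOD1-G93A over control mice (0.64 ± 0.468, SE) came with wide intervals.

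**Figure D5:**
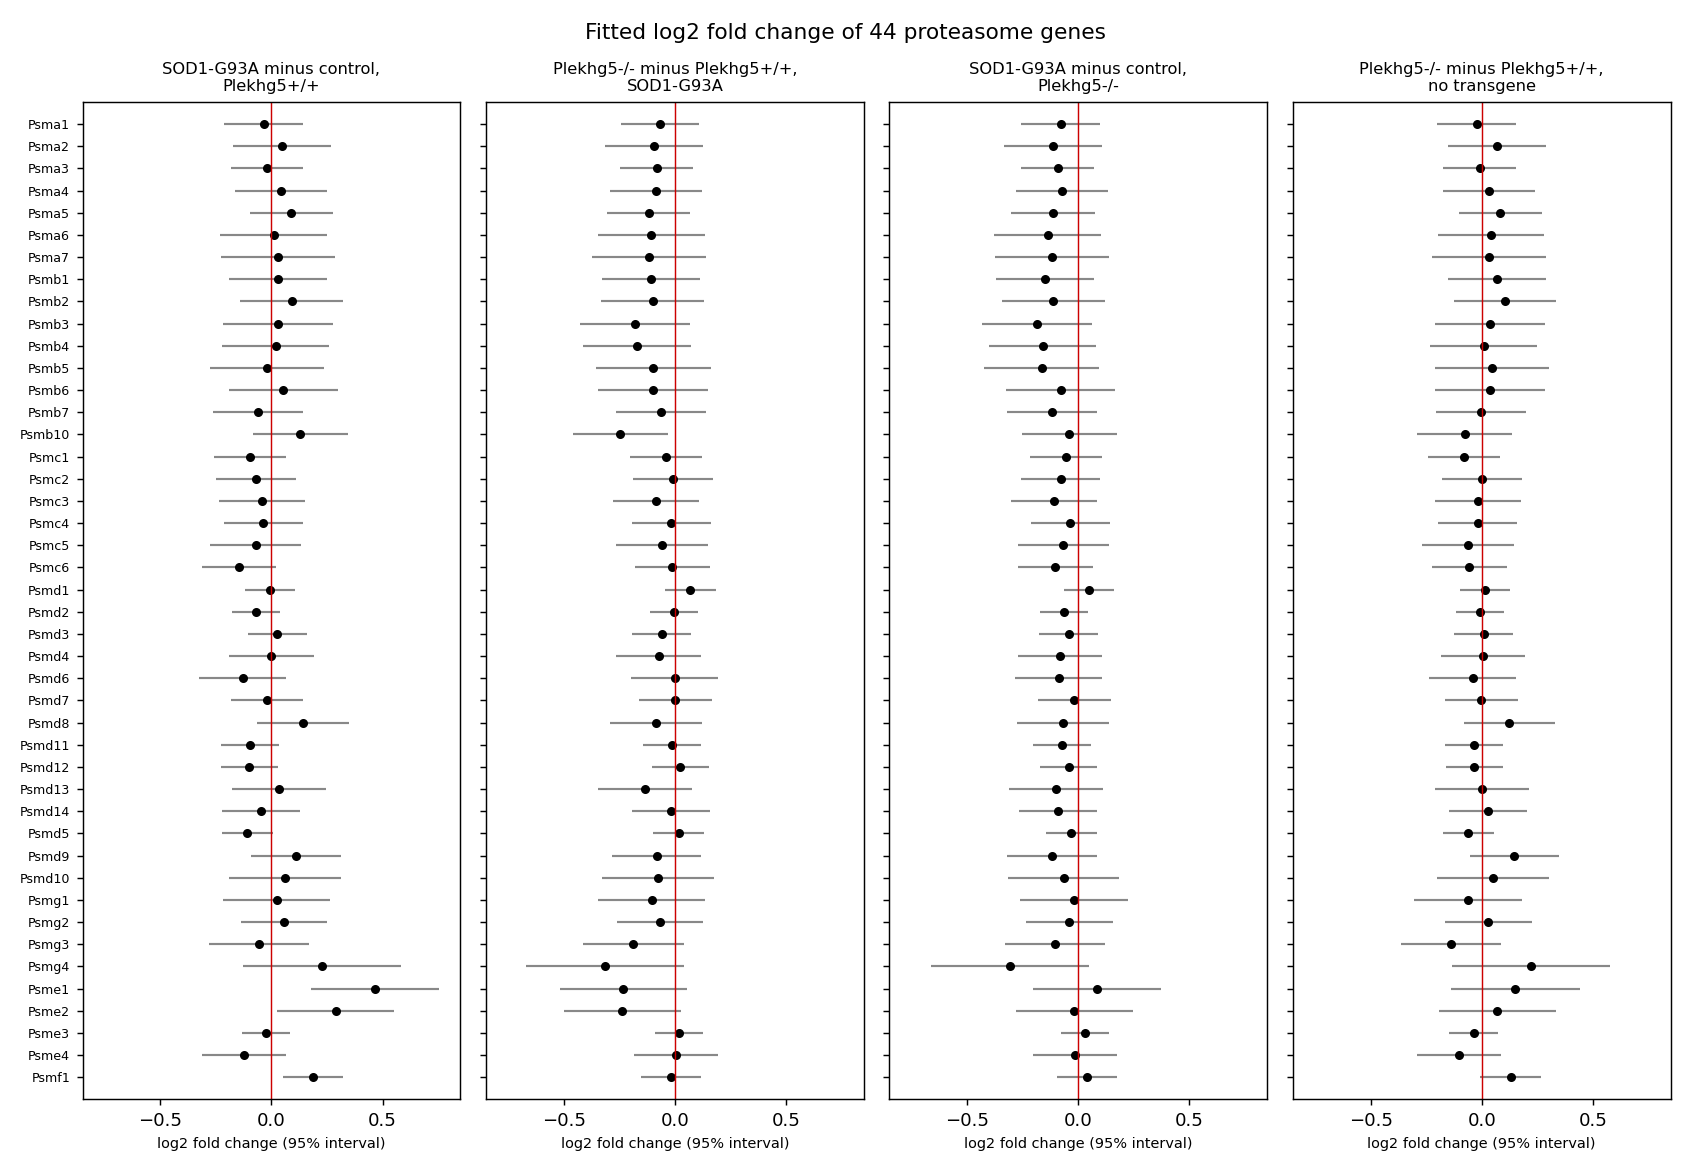
Fitted log2 fold change (x axis; point) with its 95% confidence interval (line) of 44 members, all that passed the filter except Psma8, in the 4 comparisons of 2 groups. Most intervals cross 0, and Psme1, Psme2 and Psmf1 in the first panel and Psmb10 in the second are the only ones that do not.

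Between the transgenic and non-transgenic mice that lacked Plekhg5, 0 of 45 members passed the test (0.00496% of all genes tested; DESeq2 called 0) and 0 stood at an unadjusted p under 0.05 (5.38% of all genes tested). The median log2 fold change was -0.08, with 5 of 45 positive. It was -0.04 with the exon-length trend removed, -0.0037 without Plekhg5-/- library 1 and -0.003 without all 3 libraries high for short genes. It was -0.13 without Plekhg5-/- library 3. The groups did not overlap for 1 member, Psmd11 (2.22%, against 12.5% of all genes tested), at 60.1, 55.1 and 56.9 CPM in Plekhg5-/- and 54.0, 54.7 and 54.7 CPM in Plekhg5-/- SOD1-G93A mice. Psme1 had a log2 fold change of 0.08 ± 0.133 (SE), with a 95% confidence interval from -0.21 to 0.37. The most negative were Psmg4 (-0.31 ± 0.164, SE), Psmb3 (-0.19 ± 0.115, SE) and Psmb5 (-0.17 ± 0.119, SE). Psmb3 was at 52.0, 40.4 and 40.5 CPM in Plekhg5-/- and 38.1, 37.4 and 41.2 CPM in Plekhg5-/- SOD1-G93A mice, where Plekhg5-/- library 1 stood apart. The most positive were Psma8 (0.45 ± 0.445, SE), Psme1 and Psmd1 (0.05 ± 0.0526, SE), whose values are printed above.

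The difference between these effects of the transgene was tested as an interaction term. No member passed (0 of 45; 0% of all genes tested), and 1 member, Psmg4, stood at an unadjusted p under 0.05 (2.22%, against 9.05% of all genes tested; log2 difference -0.54 ± 0.232, SE; edgeR adjusted p = 0.524). Psmg4 had the shortest exon length of the members (0.554 kb). With the exon-length trend removed it was at -0.31 ± 0.156 (SE; edgeR unadjusted p = 0.0691). In that fit 3 members (6.67%), Psmc1, Psmc4 and Psmd12, were positive at an unadjusted p under 0.05, and 0 passed. The share of all genes at that threshold was not counted. For Psme1 the log2 difference was -0.38 ± 0.188 (SE; edgeR adjusted p = 0.561), with a 95% confidence interval from -0.79 to 0.02, and for Psme2 it was -0.31 ± 0.172 (SE; edgeR adjusted p = 0.595). A difference in the response of the PA28 genes was thus not shown, and the intervals are too wide to call the responses alike. The most positive members were Psme4 (0.11 ± 0.123, SE), Psmd5 (0.08 ± 0.0752, SE) and Psmd12 (0.06 ± 0.0838, SE). In the Plekhg5-/- SOD1-G93A libraries Psme4 was at 64.8, 65.7 and 66.5 CPM. Psmd5 was at 54.1, 51.2 and 53.8 CPM in Plekhg5-/- and 51.7, 50.1 and 53.8 CPM in Plekhg5-/- SOD1-G93A mice, and Psmd12 at 118.9, 107.3 and 105.9 CPM and at 107.8, 106.4 and 108.1 CPM. DESeq2 called 0 members here. The members' median log2 difference was -0.08 (13 of 45 positive; all genes tested: -0.01). With the exon-length trend removed it was 0.02 (27 of 45 positive).

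Averaged over both Plekhg5 backgrounds, the transgene gave 0 calls among the 45 members (1.22% of all genes tested; DESeq2 called 0). At an unadjusted p under 0.05 stood 3 members (6.67%, against 14.7% of all genes tested): Psme1 (0.27 ± 0.0942, SE; edgeR adjusted p = 0.176) and Psmf1 (0.11 ± 0.0444, SE; edgeR adjusted p = 0.246) were higher and Psmc6 (-0.12 ± 0.0549, SE; edgeR adjusted p = 0.316) was lower. The other members at either end were Psma8 (0.54 ± 0.323, SE), Psme2 (0.14 ± 0.086, SE), Psmd6 (-0.11 ± 0.064, SE) and Psmb5 (-0.09 ± 0.0843, SE). In the mice that lacked Plekhg5, Psmc6 was at 116.5, 105.9 and 104.4 CPM without and 100.8, 98.2 and 105.3 CPM with the transgene, and Psmd6 at 75.9, 65.1 and 68.2 CPM and at 66.6, 61.8 and 68.3 CPM. The members' median was -0.04, and it ranged from -0.07 without SOD1-G93A library 3 to 0.0027 without control library 1, with -0.0036 without Plekhg5-/- library 1. In 44 of 45 members the 95% confidence interval lay within 0.5 log2 units of 0. With the exon-length trend removed, 20 members stood at an unadjusted p under 0.05 (44.4%, against 19% of all genes tested), 18 of them lower, and 0 passed after adjustment, where 1.78% of all genes tested did. The smallest adjusted p among the lower members belonged to Psmb7 (-0.11 ± 0.0269, SE; edgeR adjusted p = 0.0529), Psmc6 (-0.14 ± 0.0351, SE; edgeR adjusted p = 0.0646) and Psmb5 (-0.12 ± 0.0314, SE; edgeR adjusted p = 0.0727).

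Other genes of the pathway were taken from lists. Of 11 proteasome-associated genes outside the symbol rule that were tested, among them the 20S maturation factor Pomp, the ubiquitin receptor Adrm1 and the deubiquitinases Uchl5 and Usp14, 2 passed as higher in SOD1-G93A over control mice (Psmb8 and Psmb9) and 0 as lower. The same 2 genes passed as higher in the average over both backgrounds. Pomp was at 115.5, 90.6 and 85.8 CPM in control and 89.4, 95.8 and 107 CPM in SOD1-G93A mice. Of 10 tested regulators of proteasome gene transcription, 0 passed in any of the 6 comparisons, and Nfe2l1 had a log2 fold change of -0.05 ± 0.0694 (SE) and Stat3 of 0.28 ± 0.098 (SE; edgeR adjusted p = 0.143) in SOD1-G93A over control mice. Of 16 genes for ubiquitin, shuttle factors and the Vcp segregase, 0 passed in any of the 6 comparisons, including the polyubiquitin gene Ubb (log2 fold change 0.03 ± 0.108, SE) in SOD1-G93A over control mice.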

How the data were processed

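RNA-seq was read from 12 spinal cords, 3 mice a group. The authors deposited 1 table of estimated counts per gene. The submitters' processing notes name Cutadapt 2.4, STAR 2.7.2b, featureCounts 1.6.4 and GRCm38.p6. Libraries were poly-A selected and stranded. The deposited counts were partly fractional, with 12 of the 46 members whole in all 12 libraries (within 1e-09), so members with near copies are uncertain. Counts were rounded and fitted with edgeR 4.0.16 in R 4.3.3 (filterByExpr, TMM, robust quasi-likelihood) over all 12 libraries and 20155 genes, two-sided, with Benjamini-Hochberg adjustment over all genes and a threshold of 0.05. DESeq2 1.42.0, other scalings and filters, and leaving out each library were alternatives. The exon-length trend, a loess per library (span 0.5) entered as offsets, and the omission of 3 libraries were added after seeing the data. The fit was tested on simulated data.

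The members and lists were chosen with earlier results of these data known. In each comparison the members that passed, or otherwise the 3 most positive and 3 most negative, were named with their values, and other genes were named after their values were seen. Paaf1 of the lists matched no row.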

Additional observations from a re-analysis of the deposited data

How the results depend on the processing

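In SOD1-G93A over control mice, 0 members passed as reported, among 498 genes that passed in the whole table. The count of members was 1 with DESeq2 (1149 genes in the whole table) and 1 with DESeq2 and a fold-change prior (1196 genes). It was 1 at an adjusted p under 0.1 (1145 genes) and 1 with Y-linked transcripts as a covariate (613 genes). With the exon-length trend removed it was 4 (912 genes). Leaving out 1 library at a time, the count ranged from 0 to 1, and from 0 to 1 in the average over both backgrounds. In both the 1 member, without SOD1-G93A library 2, was Psme1 (771 and 560 genes in the whole table). With the exon-length trend also removed, it was 3 without Plekhg5-/- library 1 (1015 genes in the whole table) and 1 without Plekhg5-/- library 3 (667 genes). Without SOD1-G93A library 2 it was 6 (1428 genes), and 5 in the average without that library (848 genes). Over all alternatives of Psme1 in this comparison the direction was positive. The members' median in the interaction (-0.0809 as reported) ranged from -0.157 without control library 1 to 0.0112 without Plekhg5-/- library 1, and was -0.028 without SOD1-G93A library 3. With the trend removed, it was 0.0162 with all 12 libraries (27 of 45 positive, against 13 of 45 as reported). On leaving out 1 library it then ranged from 0.0024 to 0.0518. It was 0.0265 and 0.0345 without control library 2 or 3, 0.0518 without Plekhg5-/- library 1 and 0.0232 without SOD1-G93A library 3. Without Plekhg5-/- SOD1-G93A library 1 or 2 it was 0.0223 and 0.022. The cause was not tested.

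Replicate numbers belonged to different mice, and the deviations of same-numbered samples correlated between -0.16 and 0.32. The highest value was between library 1 of control and of Plekhg5-/- mice, both high for short genes. It was 0.30 between library 1 of SOD1-G93A and of Plekhg5-/- SOD1-G93A mice. Whether same-numbered samples were prepared together was not tested. With the replicate block, 1 member passed in SOD1-G93A over control mice, Psme1 (edgeR adjusted p = 0.0437), among 631 genes in the whole table. In each other comparison 0 members passed.

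Of the single genes, 4 changed sign in some setting, 1 of them Psme1, which had a log2 fold change of -0.23 in Plekhg5-/- SOD1-G93A over SOD1-G93A mice as reported. With the trend removed and SOD1-G93A library 1 left out, Psmb10 was at -0.0025 in SOD1-G93A over control mice and Psme1 at 0.036 in Plekhg5-/- SOD1-G93A over SOD1-G93A mice, with adjusted p = 0.95. In that last comparison Psma8 ranged from -0.1715 to 0.2207 on leaving out 1 library, with -0.029 without SOD1-G93A library 2, and was at -0.1108 with the trend removed and Plekhg5-/- SOD1-G93A library 2 left out. In Plekhg5-/- over control mice Psma8 ranged from -0.0849 to 1.1962 on leaving out 1 library, was at -0.1732 without the 3 libraries high for short genes, and at -0.0384 and -0.0914 with the trend removed and control library 1 or 2 left out. Psme4 in the interaction was at -0.034 without those 3 libraries, and at -0.0087, -0.0107 and -0.0222 with the trend removed and control library 1, Plekhg5-/- library 1 or SOD1-G93A library 3 left out.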
